A study of Mus musculus with 20 samples.

Results

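The RNA recovered with a Tet2 protein that lacks its RNA-binding domain (Tet2dRBD) was compared with the input RNA of the same mouse embryonic stem cell (ESC) line. The 4 immunoprecipitation (IP) libraries were each set against the input library of the same replicate number, and these 8 libraries are part of 20 in the RIP-seq experiment. Of 23284 genes in each table, the 8493 with a mean of at least 5 TPM over the 4 inputs were described. TPM, the unit of all levels given here, is a transcript's share of the library after division by its length, scaled to the same total in every library. Just above this limit lay Ggcx and Mgat5b (5.00 TPM each, mean log2 ratios of -0.28 and 0.49), and just below it Map4k5 (4.99) and Traf6 (5.00), with 0.57 and 0.39. For each gene and pair, the log2 ratio is log2 of (TPM + 1) in the IP over (TPM + 1) in the input, so a value above 0 means a larger share of the IP than of the input.

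Tet2 is a dioxygenase that oxidises 5-methylcytosine to 5-hydroxymethylcytosine in DNA, and the same reaction has been described in RNA. It acts beside its relatives Tet1 and Tet3 and is active in ESCs. The domain removed here lies in the C-terminal region near the catalytic domain and was found in a proteomic search for protein regions that touch RNA. RNA immunoprecipitation recovers a protein from an extract with an antibody and sequences the RNA that comes with it, whether the protein touches that RNA itself or is held to it by others.

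The study asked which transcripts Tet2 associates with and whether this domain is needed. All 3 lines (Tet1, Tet2 and Tet2dRBD) were wild-type ESCs grown in serum with leukemia inhibitory factor, in which a CRISPR-Cas9 cut at the stop codon placed a triple tag of Flag, HA and Twin-Strep on the C-terminus of the endogenous protein. The Tet2 line served here as the comparison and differs from Tet2dRBD in that its repair template kept the domain. Each line was grown from picked clones, and how many clones stand behind the replicates is not given in the sources used here, so a difference between lines cannot be told apart from a difference between clones. Per the study's methods, the anti-Flag IP was made from cytoplasmic extract and the input was total RNA, so recovery by the protein cannot be told apart from the share of a transcript in the cytoplasm. The IgG control described there was not analysed here, nor was an untagged line.

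The deletion was located from the primers with which the study rebuilt the repair template, by matching them to the Tet2 transcript. Tet2 lies on the minus strand of chromosome 3 (mm9, chr3:133126643-133207354). The segment between the primers, chr3:133129884-133130045, was 162 bases long and lay in the last exon, exon 10 of 10 in the transcript with the longer coding sequence. It was in frame and held 54 codons, numbers 1806 to 1859 of 1920. The primers and the reference sequence around both edges are shown because they define the protein used. They are written 5′ to 3′ on the Tet2 strand except for the primer upstream of the deletion, which reads the other strand, and capitals mark the removed bases in the edges and the bases downstream of the new junction in the junction.
Primer downstream of the deletion: gtgtctcagaaaaatcatggcaaac
Primer upstream of the deletion: ggttgtggcatgaacctcacactttg
Upstream edge: gttcatgccacaaccAAAGTAAACGATCCC
Downstream edge: AATGGATCAGACCACgtgtctcagaaaaat
Junction after deletion: catgccacaaccGTGTCTCAGAAA

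The Tet2 transcript had 6.12, 2.49, 6.13 and 9.21 TPM in inputs 1 to 4 and 16.7, 4.44, 9.22 and 8.86 TPM in IPs 1 to 4. Its IP value was above input in pairs 1 to 3 and just below it in pair 4, and the gene was not called (edgeR adjusted p = 0.14). These totals are for the whole gene, with an effective length of 9113 bases, and a loss of 162 bases cannot be seen in them, so they do not check the label of the line. Tet1, the relative most active in ESCs, had 17.1, 8.66, 9.86 and 13.1 TPM in the inputs and 40.1, 24.9, 18.9 and 17.9 in the IPs. Each of its IPs lay above its own input and above all 4 inputs, with a mean log2 ratio of 0.98 ± 0.43 (SD, n = 4), and it was called higher (edgeR adjusted p = 0.024), a call lost without replicate 1, 2 or 3 (adjusted p up to 0.066). Tet3 had a mean input of only 1.46 TPM and a mean log2 ratio of 0.31.

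The Tet2dRBD libraries held 25117213 to 37576638 expected counts in the IPs and 21078995 to 35967015 in the inputs. All 8 ESC markers examined were above 5 TPM in these inputs, with a summed level of 14438 to 18794 TPM. Markers of primitive endoderm, a lineage that ESC cultures can produce, summed to 196 to 395 TPM with 6 of 8 above 5 TPM, against 45.2 to 195 TPM in the Tet2 line's inputs. Primed epiblast markers summed to 94.2 to 251 TPM with 5 of 7 above 5 TPM, trophoblast markers to 42.9 to 176 TPM with 4 of 8 and Elf5 at 0, fibroblast markers to 14.4 to 66.2 TPM with 2 of 8, and neuroectoderm markers to 22.3 to 27.0 TPM with 2 of 8 and Neurog2 at 0. None of the mesendoderm or 2-cell-like markers reached 5 TPM. The part of these cells in the results was not tested.

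The 4 pairs did not give the same picture. The median log2 ratio over the 8493 genes was 0.239 in pair 1, -0.007 in pair 2, 0.255 in pair 3 and 0.190 in pair 4. In pair 2, 49.3% of the genes lay above input, against 65.5% to 73.9% in the others. Across genes, the log2 ratios of pairs 3 and 4 had a Pearson correlation of 0.83, pairs 1 and 3 of 0.65, pairs 1 and 2 of 0.49 and pairs 1 and 4 of 0.37, while pair 2 had 0.33 with pair 3 and 0.09 with pair 4. The sample titles number the replicates 1 to 4 and name no sets. From the numbering of the deposited libraries, replicates 3 and 4 were taken as 1 set and replicates 1 and 2 each as a set of its own. What these sets are is not given in the labels, and whether replicates 3 and 4 share a preparation is not known. Where they do, n = 4 overstates the number of separate preparations. Because of these differences, values for gene classes are given relative to the median of all 8493 genes in the same pair, and with and without replicate 2.

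A total of 2568 genes (30.2%) lay above input in all 4 pairs and 977 (11.5%) below input in all 4. Without replicate 2 these counts were 4651 and 1330, since 2081 genes were above input in pairs 1, 3 and 4 but below it in pair 2, and 350 the other way round. After each pair was centred on its own median, 1666 genes (19.6%) were above and 1797 (21.2%) below the median in all 4 pairs, and without replicate 2 these were 2563 and 2691. Over the 4 pairs the median of the genes' mean log2 ratios was 0.198, with an SD of 0.121 between the pair medians.

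In the edgeR quasi-likelihood test of IP against input within pairs, 1014 of 13710 genes tested (7.40%) were called higher in the IP and 1660 (12.1%) lower, at an adjusted p of 0.05. Among the 8468 tested genes with at least 5 TPM, 463 (5.47%) were called higher and 1416 (16.7%) lower, of which 460 lay above input in all 4 pairs and 888 below it in all 4. The split depended on the scale. edgeR centres the libraries on each other, and its log2 changes lay 0.27 (median) below the log2 TPM ratios; limma on log2(TPM + 1) called 3224 genes higher and 629 lower, so that 83.7% of its calls were higher ones against 37.9% of edgeR's. Of edgeR's calls, 994 of the 1014 higher ones and 625 of the 1660 lower ones were also called by limma, and none was called in the other direction. Without replicate 2 edgeR called 1135 higher and 1615 lower, without replicate 1 365 and 870, without replicate 3 207 and 588, and without replicate 4 1226 and 1227.

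The genes most enriched in the Tet2dRBD IP were of unlike roles, apart from Gm20362, which had no annotated type, and none was short. The 12 genes with the highest mean log2 ratio, among those called higher and above input in all 4 pairs, were Gm20362, Pabpc1, Lamb1, Taf1d, Rpl4, Kif20a, Dbf4, Nuf2, Gpbp1, Ipo7, Dnm1l and Tab2. Their means ran from 1.78 to 2.35 and their input levels from 5.04 to 842 TPM. Their effective length, the number of positions at which a fragment can start, had a median of 2901 bases against 2374 for all 8493 genes, and none was under 1 kb (1219 to 5710 bases).

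Pabpc1 encodes the cytoplasmic poly(A)-binding protein, which coats the tails of mRNAs (mm9, chr15:36525416-36538728, minus strand, 15 exons). It had 231, 95.2, 186 and 613 TPM in inputs 1 to 4 and 1700, 474, 1386 and 1402 TPM in the IPs. Each IP was above its own input by more than 2-fold, although IP 2 lay below input 4. The mean log2 ratio was 2.32 ± 0.80 (SD, n = 4), and edgeR gave a log2 change of 2.06 ± 0.30 (SE) with an adjusted p of 0.0018.

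Rpl4, a protein of the large ribosomal subunit, stood apart from the rest of its family (chr9:64021194-64026369, plus strand). Its inputs had 1097, 200, 691 and 1381 TPM and its IPs 5697, 983, 2750 and 2797 TPM. IPs 1, 3 and 4 exceeded every input, while IP 2 lay above inputs 2 and 3 and below inputs 1 and 4. The mean log2 ratio was 1.92 ± 0.62 (SD, n = 4; edgeR adjusted p = 0.0012).

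Lamb1, a laminin chain of basement membranes, had 9.90, 8.90, 16 and 23.9 TPM in the inputs and 98.5, 27.5, 78.3 and 62.3 TPM in the IPs (chr12:31950099-32014509, plus strand). The IPs all lay above the inputs without overlap, with a mean log2 ratio of 2.07 ± 0.84 (SD, n = 4; edgeR adjusted p = 0.0012). Kif20a, a mitotic kinesin, had 51.8, 4.39, 13.3 and 22.7 TPM in the inputs and 159, 39.3, 55.2 and 52.7 TPM in the IPs. Every IP exceeded its own input, but input 1 lay above IP 2, and the mean log2 ratio was 1.91 ± 0.73 (SD, n = 4; edgeR adjusted p = 0.0063). Nuf2, a kinetochore protein, had a mean of 1.84 and Dbf4, the activator of the kinase that fires replication origins, 1.86.

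Among these 12, edgeR's adjusted p ran from 0.0012 to 0.029. Gm20362, Pabpc1, Lamb1, Rpl4, Kif20a, Nuf2 and Tab2 kept their call whichever of the 4 pairs was left out. Dbf4 and Gpbp1 lost the call without replicate 3 (adjusted p of 0.052 and 0.065), and Taf1d, Ipo7 and Dnm1l lost it without replicate 1 or 3 (up to 0.11, 0.061 and 0.087). Pair 4 was the lowest of the 4 pairs in 11 of the 12 genes and pair 1 the highest in 8. Cebpz, Gnl2 and Tmem184c had means of 2.38, 2.58 and 2.36 but inputs of 4.73, 2.48 and 1.09 TPM, below the limit.

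Most of the genes at the depleted end were under 1 kb. The 12 with the lowest mean log2 ratio, among those called lower and below input in all 4 pairs, were Snora78, 5730408K05Rik, 2610019E17Rik, Churc1, 2700023E23Rik, 6330406I15Rik, Gng5, Snora43, Ube2n, Plac8, D7Ertd143e and Mir17hg. Their means ran from -1.76 to -1.15, and their median effective length was 600 bases, with 8 of 12 under 1 kb (71 to 3783 bases). Pair 2 was the pair nearest to 0 in 8 of them.

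Snora78, a small nucleolar RNA that guides pseudouridine formation in other RNAs, had the lowest mean (chr17:24856621-24856748, minus strand). Its inputs had 23.0, 10.3, 28.3 and 25.7 TPM and its IPs 3.78, 4.78, 8.67 and 5.02 TPM. All 4 IPs lay below all 4 inputs, with a mean log2 ratio of -1.76 ± 0.61 (SD, n = 4) and an edgeR log2 change of -2.18 ± 0.29 (SE, adjusted p = 0.0011). Its effective length was 89 bases, so its TPM rests on few start positions.

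Gng5, a G protein gamma subunit, was the most even (chr3:146162798-146168536, plus strand). It had 362, 466, 946 and 886 TPM in the inputs and 167, 175, 394 and 386 TPM in the IPs. Every IP was under its own input by a like factor, while IPs 3 and 4 overlapped with input 1 in level. The mean log2 ratio was -1.24 ± 0.12 (SD, n = 4; edgeR adjusted p = 0.00043). Ube2n, a ubiquitin-conjugating enzyme, had 65.3, 44.7, 112 and 112 TPM in the inputs and 31.4, 24.1, 39.7 and 38.6 in the IPs, all of them below every input (mean -1.22; edgeR adjusted p = 0.00026). Churc1 had 226, 789, 836 and 701 TPM in the inputs and 92.5, 750, 181 and 176 in the IPs. Its IP 2 was close to its input while the other 3 were well below theirs (mean -1.38; edgeR adjusted p = 0.011), and the call was lost without replicate 3 (0.061). Snora43 lost its call without replicate 2 or 3 (up to 0.12), and the other 10 of the 12 kept theirs whichever pair was left out.

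**Figure D1:**
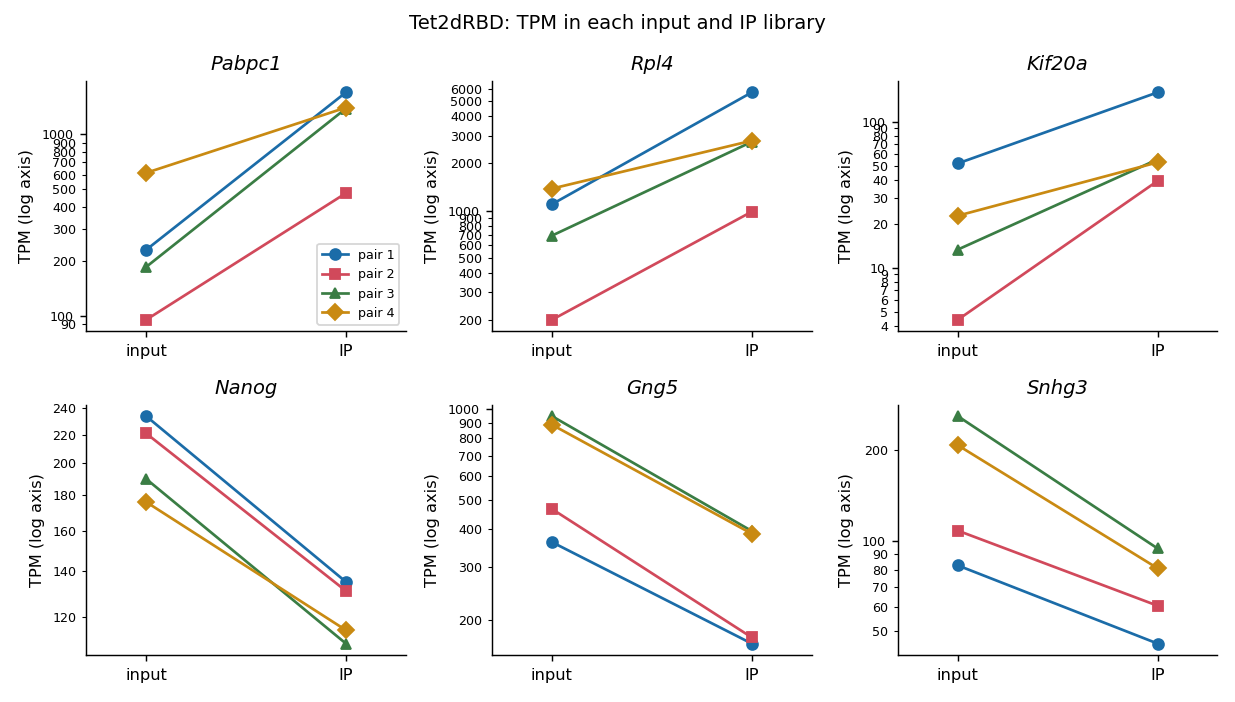
TPM of 6 genes in the Tet2dRBD libraries, on a log axis, with a line from the input to the IP of each of the 4 pairs. Pabpc1, Rpl4 and Kif20a go up in every pair, by less in pair 4, while Nanog, Gng5 and Snhg3 go down in every pair.

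**Figure D2:**
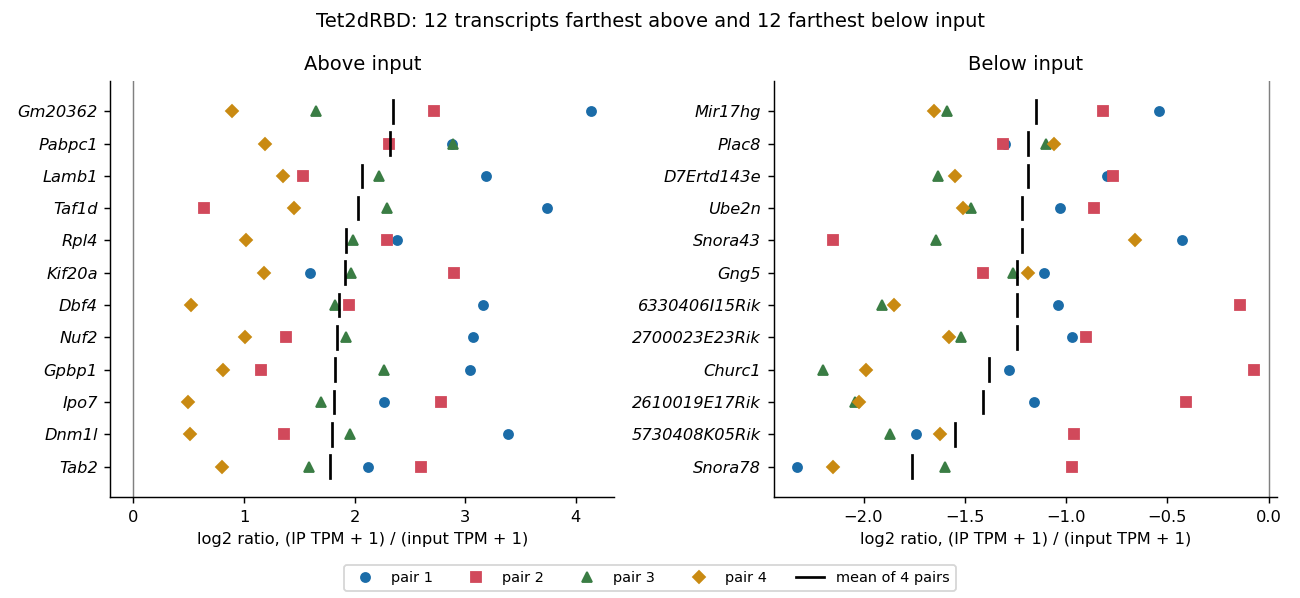
Log2 ratio of IP over input (TPM + 1) for the 12 genes with the highest and the 12 with the lowest mean, with a point for each of the 4 Tet2dRBD pairs and a bar for their mean. The means run from 1.78 to 2.35 and from -1.76 to -1.15, and the pairs spread more among the high genes than among most low ones.

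Transcripts of the translation machinery divided by protein type. The cytosolic ribosomal proteins, the structural proteins of the ribosome, leaned to depletion: 24 of 79 (30.4%, against 16.7% of all tested genes at this level) were called lower and 1 was called higher, and limma on log2(TPM + 1) called 13 lower and 8 higher. Of all tested genes at this level, limma called 555 (6.55%) lower and 2100 (24.8%) higher, the background for its counts in each class. The background for edgeR's counts in each class was 16.7% lower and 5.47% higher. For its counts without replicate 2, the background was 1434 lower and 609 higher of the 8468 tested genes at this level. The median of the cytosolic ribosomal proteins relative to all genes was -0.29, with -0.42, 0.12, -0.46 and -0.35 in pairs 1 to 4, and -0.41 without replicate 2. Rpl15 had 2056, 2003, 1642 and 1534 TPM in the inputs and 1107, 1062, 856 and 882 TPM in the IPs. Every Rpl15 IP lay below every input, with a mean log2 ratio of -0.89 ± 0.06 (SD, n = 4; edgeR adjusted p = 0.0027). Rps28 had a mean of -0.83 (edgeR adjusted p = 0.011, lost without replicate 1 or 3, up to 0.062). Rpl5, which carries 5S rRNA into the large subunit, had a mean of 1.47 but was not called (edgeR adjusted p = 0.077), with 3.19 in pair 2 and 0.66 to 1.04 in the others. Ribosomal protein genes have many processed copies in the genome, and how the authors' estimation divided reads among them is uncertain.

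Mitochondrial ribosomal proteins followed the cytosolic ones. Of 73, 21 (28.8%) were called lower and none higher by edgeR, while limma called 13 lower and 8 higher, and their relative median was -0.18 (-0.26 without replicate 2). Mrps14 and Mrps36, both of the small subunit, had means of -0.77 and -0.76 (edgeR adjusted p of 0.0010 and 0.0040). Subunits of the respiratory chain and ATP synthase were lower still: 30 of 75 (40.0%) were called lower and 1 higher, limma called 16 lower and 4 higher, and their relative median was -0.39, with -0.49, -0.04, -0.49 and -0.42 in pairs 1 to 4. Without replicate 2 it was -0.48 and 44 of them were called lower. Ndufc1, a subunit of complex I, had a mean of -0.74 ± 0.11 (SD, n = 4; edgeR adjusted p = 0.0020), and Ndufb4 -0.72 (0.029, lost without replicate 1, 3 or 4, up to 0.12). The median effective lengths of these 3 classes were 616, 975 and 611 bases, all under the 2374 bases of all genes.

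Factors that assist translation did not lean the same way as the ribosome. Initiation and elongation factors had a relative median of 0.08 (0.06 without replicate 2), with 7 of 56 (12.5%) called lower and 1 (1.79%) higher (limma 2 and 16). The lowest of the list was Eef1e1, counted in it although it is a scaffold protein of the multisynthetase complex. It had 173, 137, 197 and 188 TPM in the inputs and 87.7, 64.4, 90.7 and 86.1 TPM in the IPs. Its IPs all lay below its inputs with little spread in ratio (mean -1.07 ± 0.07, SD, n = 4; edgeR adjusted p = 0.00026). Eif2a, an alternative carrier of initiator tRNA, was the highest at 1.77 (edgeR adjusted p = 0.019, lost without replicate 1 or 3, up to 0.085). Aminoacyl-tRNA synthetases, which charge tRNAs, had a relative median of 0.21 (0.26 without replicate 2), and 13 of 20 lay above input in all 4 pairs, against 30.2% of all genes. Of these 20, 2 (10.0%) were called higher and none lower (limma 13 and none), and without replicate 2 there was 1 call each way. Eprs was called higher with a mean of 1.05 (edgeR adjusted p = 0.038), a call lost without replicate 1, 2 or 3 (up to 0.14), and Lars had 0.96 and was not called (0.11).

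Nucleolar factors of ribosome assembly had a relative median of 0.20 (0.14 without replicate 2), and 35 of 77 lay above input in all 4 pairs, against 30.2% of all genes. edgeR called 4 (5.19%) of them higher and 8 (10.4%) lower, and limma 29 higher and 6 lower, against its 24.8% and 6.55% over all genes. Utp14a, of the small-subunit processome, had a mean of 1.38 (edgeR adjusted p = 0.012). Nop58, a core protein of box C/D snoRNPs, had 1.62 and was not called (0.10). At the other end were Rrs1 at -0.62 (0.00033) and Gnl3l at -0.64 (0.0014), both called lower.

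Of the spliceosome, SR and hnRNP proteins, which cut and package pre-mRNA, 25 of 77 (32.5%) were called lower and 3 higher, and limma called 11 lower and 13 higher. Their relative median was -0.12, and -0.20 without replicate 2. Hnrnpf had 814, 719, 577 and 578 TPM in the inputs and 490, 415, 338 and 328 TPM in the IPs. Its IPs did not overlap with its inputs, and its mean was -0.78 ± 0.04 (SD, n = 4; edgeR adjusted p = 0.00026). Srsf1, an SR splicing factor, had -0.79 (0.00043). Cdc5l and Dhx8, which act at the catalytic steps and in release of the spliced mRNA, had 1.41 and 0.99 (edgeR adjusted p of 0.026 and 0.038), the first lost without replicate 1 or 3 (up to 0.091) and the second without replicate 2 or 3 (up to 0.11).

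Kinesins, the motors that move along microtubules, had the highest median of all 24 classes. Of 17 at this level, 6 (35.3%, against 5.47% of all tested genes at this level) were called higher and none lower (limma 9 and none). In all 4 pairs 12 lay above input, against 30.2% of all genes. The relative median was 0.42, with 0.46, 0.19, 0.60 and 0.30 in pairs 1 to 4, and 0.56 without replicate 2. The members ran from 0.13 for Kif18b, a depolymerising kinesin (edgeR adjusted p = 0.37), to 1.91 for Kif20a. Kif23, which builds the central spindle, had a mean of 1.23 ± 0.72 (SD, n = 4; edgeR adjusted p = 0.0084). Kifc1 and Kifc5b are near-identical copies, so the division of reads between them is uncertain. Their median effective length was 3405 bases.

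Subunits of the PRC2, NuRD and ESC BAF complexes, which silence or remodel chromatin, had a relative median of 0.22 (0.19 without replicate 2). Of 34, 19 lay above input in all 4 pairs, against 30.2% of all genes, and none below it in all 4, against 11.5%. edgeR called 3 (8.82%) higher and 2 (5.88%) lower (limma 11 and none). Mbd2, a reader of methylated DNA, had a mean of 1.03 ± 0.40 (SD, n = 4; edgeR adjusted p = 0.011), and Rbbp4, a histone-binding subunit of several complexes, -0.24 (0.026, lost without replicate 1, 2 or 3, up to 0.13). Eed, the PRC2 subunit that reads its own mark, had 65.5, 26.1, 112 and 127 TPM in the inputs and 117, 82.7, 188 and 180 TPM in the IPs. Each IP was above its own input, with overlap between the groups, and the mean was 0.93 ± 0.49 (SD, n = 4; edgeR adjusted p = 0.043), a call lost without replicate 1, 2 or 3 (up to 0.087). Other genes that the study discusses were not called: Jarid2 had a mean of 0.50 (edgeR adjusted p = 0.21), Smarcc1 0.57 (0.49), Mbd3 0.54 (0.074), Dab1 0.47 (0.13), Sfpq 0.25 (0.82), Paf1 -0.04 (0.15) and Mdc1 -0.13 (0.060). Cdh4 had a mean input of 0.805 TPM, below the limit.

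Among the 12 writers and erasers of cytosine methylation, 2 (16.7%) were called higher and 2 (16.7%) lower (limma 4 and 1). Their relative median was 0.13 (0.14 without replicate 2). Tet1 was the highest. Dnmt1, the maintenance methyltransferase, had 0.78 and was not called (edgeR adjusted p = 0.19), while Dnmt3b, a de novo methyltransferase, had -0.11 and was called lower (0.027, lost without replicate 1, 2 or 3, up to 0.11). Dppa3 had -0.48 and was called lower (0.020, lost without replicate 1, 3 or 4, up to 0.095).

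The pluripotency network, transcription factors and markers of the naive state, lay at the median of all genes (-0.03 relative to it, -0.05 without replicate 2), with 9 of 34 (26.5%) called lower and 1 higher (limma 3 and 5). Nanog, a core factor of the network (chr6:122657507-122664651, plus strand, 5 exons), had 234, 221, 190 and 176 TPM in the inputs and 135, 131, 110 and 115 TPM in the IPs. All 4 IPs lay below all 4 inputs, and the mean was -0.74 ± 0.08 (SD, n = 4), or 0.601 of input. edgeR gave a log2 change of -1.02 ± 0.11 (SE, adjusted p = 0.00052). Dppa2, a chromatin factor of early embryos, had -0.60 (0.00088). Nr5a2, a nuclear receptor that sustains Oct4, was the one called higher, at 1.20 ± 0.67 (SD, n = 4; edgeR adjusted p = 0.020, lost without replicate 1 or 3, up to 0.070).

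DNA replication factors had a relative median of 0.05 with and without replicate 2, with 3 of 51 (5.88%) called higher and 6 (11.8%) lower (limma 14 and 4). Mcm6, of the replicative helicase, had 1.29 (edgeR adjusted p = 0.026, lost without replicate 3, 0.072). Rpa3, the smallest subunit of the single-strand binding complex, had -1.08 (0.00079), and Dut, which removes dUTP, -0.58 (0.0011). Folding factors of the endoplasmic reticulum had a relative median of 0.06 (0.02 without replicate 2), with 2 of 41 (4.88%) called higher and 7 (17.1%) lower (limma 11 and 5). Hspa5, the chaperone BiP, had 30.9, 35.8, 156 and 273 TPM in the inputs and 168, 159, 396 and 351 TPM in the IPs. Each IP was above its input, but by far less in pair 4 than in pair 1, and its call (mean 1.56 ± 0.91, SD, n = 4; edgeR adjusted p = 0.022) was lost without replicate 1, 2 or 3 (up to 0.082). Ssr3 and Sec61g, small subunits at the translocon, had -0.82 (0.00055) and -0.69 (0.019), the latter lost without replicate 1 or 3 (up to 0.089).

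The proteasome's subunits lay at the median of all genes (-0.01 relative to it) with all pairs and at -0.17 without replicate 2. Of 37, 5 (13.5%) were called lower and 1 (2.7%) higher, against 1 and 10 by limma. The exception upward was Psmd1, a scaffold of the regulatory particle, with 48.2, 15.3, 43.6 and 72.1 TPM in the inputs and 175, 81.0, 139 and 127 TPM in the IPs. All of its IPs lay above all of its inputs (mean 1.66 ± 0.63, SD, n = 4; edgeR adjusted p = 0.0053). Psma3, of the core particle, had -0.51 (0.0083, lost without replicate 3, 0.054).

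Membrane and secreted proteins showed no common direction. Of 131 solute carriers, the family of membrane transporters, 3 were called higher and 21 lower (limma 23 and 2), with a relative median of -0.05. Without replicate 2 the median changed sign, to 0.03. In that fit 10 were called higher and 15 lower, against 609 and 1434 of the 8468 tested genes at this level. Slc30a5, a zinc transporter, had 0.96 (edgeR adjusted p = 0.011), and Slc16a1, a lactate transporter, -0.52 (0.00088). Among 23 extracellular matrix proteins 1 (4.35%) was called higher, Lamb1, and 2 (8.7%) lower (limma 6 and 1), with a relative median of 0.08 (0.15 without replicate 2). Sparc, a collagen-binding matrix protein, had -0.52 (0.0027).

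Of 17 glycolytic enzymes 1 (5.88%) was called higher and 3 (17.6%) lower (limma 7 and 1), with a relative median of 0.10 (0.19 without replicate 2). Gapdh had 16886, 13235, 6433 and 6374 TPM in the inputs and 9938, 6836, 4670 and 4895 TPM in the IPs. Each IP was below its own input, with overlap between libraries of different pairs, and the mean was -0.64 ± 0.27 (SD, n = 4; edgeR adjusted p = 0.0036). Of 26 immediate early and Myc genes, short-lived transcripts that answer signals, 4 (15.4%) were called lower and none higher (limma 1 and 4). The relative median changed sign, from -0.05 to 0.07, without replicate 2. Id2, an inhibitor of bHLH factors, had -0.65 (edgeR adjusted p = 0.0015). Of 109 Zfp zinc finger genes, 11 (10.1%) were called higher and 10 (9.17%) lower (limma 39 and none), with a relative median of 0.09 (0.07 without replicate 2). They ran from 1.59 for Zfp488 (edgeR adjusted p = 0.0081) to -0.47 for Zfp275 (0.0056).

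The lowest class medians belonged to noncoding transcripts. Noncoding hosts of snoRNAs, whose spliced exons are mostly discarded after their introns release the guide RNAs, had 9 of 13 (69.2%) called lower and none higher (limma 5 and 1). Their relative median was -0.65, with -0.63, 0.10, -0.87 and -0.84 in pairs 1 to 4, and -0.88 without replicate 2, when 11 were called lower. The list also held Mir17hg, which hosts microRNAs and is counted again with the microRNA entries. Without it, 8 of 12 (66.7%) were called lower (limma 4), the relative median was -0.57, and without replicate 2 these were 10 and -0.72. Snhg3 (chr4:131903929-131909601, minus strand) had 82.7, 108, 260 and 208 TPM in the inputs and 45.4, 60.7, 94.2 and 80.9 TPM in the IPs. Every IP was below its own input, with overlap between pairs 1 and 2 and pairs 3 and 4 in level, and the mean was -1.12 ± 0.33 (SD, n = 4; edgeR adjusted p = 0.00042). Snhg5 was the highest of the listed hosts at 0.43 (edgeR adjusted p = 0.44). Rian, which also hosts snoRNAs, was listed with the nuclear long noncoding RNAs instead and was called higher, with a mean of 0.71. That none was called higher therefore holds for this list only.

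Long noncoding RNAs described as nuclear were mixed. Of 8, 2 were called higher and 3 lower (limma 3 and none), and the relative median was -0.47 (-0.41 without replicate 2), with 0.36 in pair 1 and -0.19, -0.66 and -0.56 in pairs 2 to 4. Neat1, the scaffold of paraspeckles, had log2 ratios of 0.62, -0.25, -1.26 and -1.45 in pairs 1 to 4, and was not called (edgeR adjusted p = 0.10). Tug1 had 5.47, 2.04, 7.82 and 17.5 TPM in the inputs and 20.3, 14.2, 22.0 and 21.5 in the IPs. Each IP was above its own input, least so in pair 4 (mean 1.43 ± 0.86, SD, n = 4; edgeR adjusted p = 0.017, lost without replicate 1 or 3, up to 0.057). Rian, an imprinted RNA that hosts snoRNAs, had 0.71 (0.0096, lost without replicate 1, 0.051).

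The smallest entries were few and poorly measured. Only 20 of 114 snoRNAs and scaRNAs and 15 of 622 microRNA entries reached 5 TPM, of which 6 and 4 could be tested. edgeR called 2 of those 6 lower, Snora78 and Snora43, and 1 of the 4 microRNA entries, the host transcript Mir17hg, which is over 2 kb long and had a mean of -1.15 (adjusted p = 0.00062). The relative medians of the genes' means were -0.83 (-0.84 without replicate 2) and -1.35, the latter -0.25 without replicate 2 and below every pair's own median (-0.58 to -0.19), since different entries were low in different pairs. Their median effective lengths were 41 and 12 bases, at which TPM values swing widely: Mir1949 had log2 ratios of 0.00, -5.13, 0.00 and 0.00, and Snord32a -2.15, 4.21, 0.80 and -1.10. Replication-dependent histones, most of whose mRNAs carry no poly(A) tail, had only 7 of 68 genes at this level in libraries labelled as poly(A) RNA, with 1 called lower, none higher and a relative median of -0.50 (-0.69 without replicate 2).

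Of the 24 classes, 10 had the same sign relative to all genes in all 4 pairs, and 15 in pairs 1, 3 and 4. The classes overlap in a few members, and their counts describe these lists only.

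**Figure D3:**
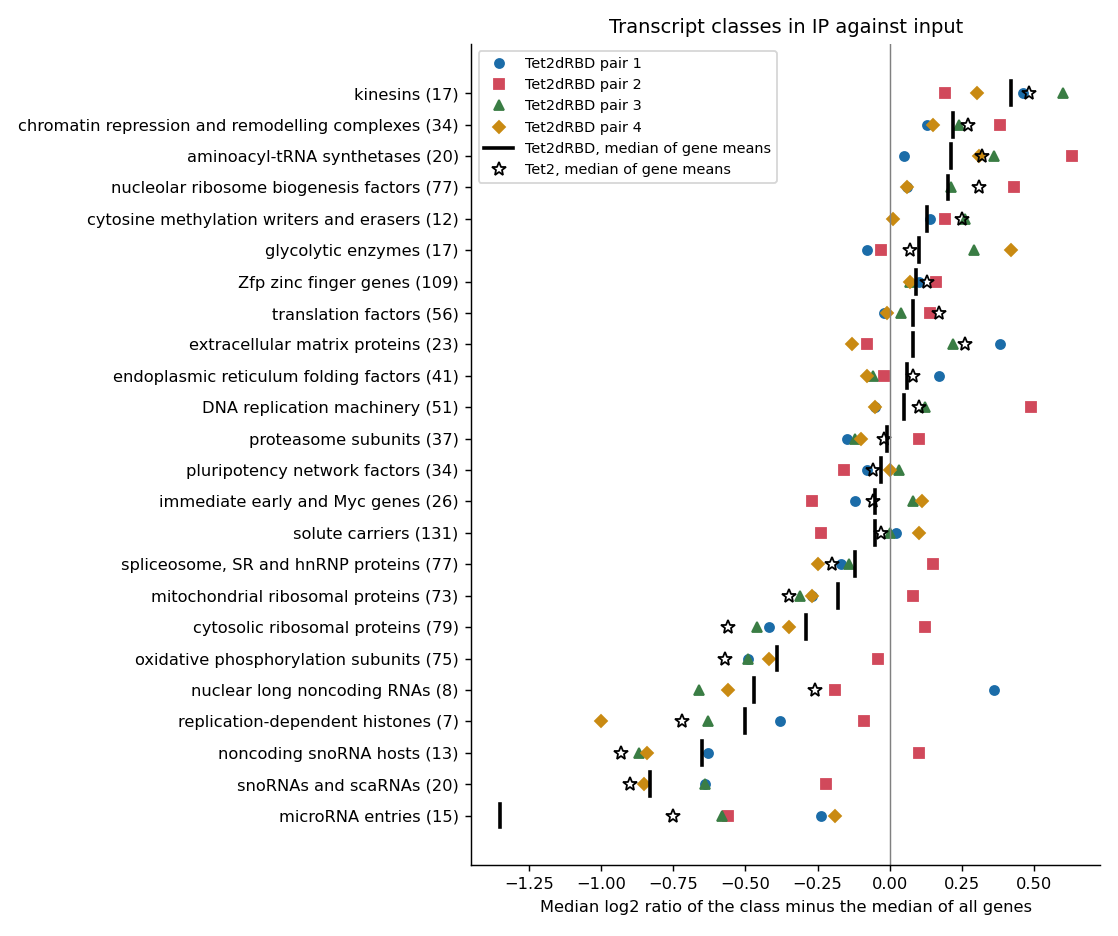
Median log2 ratio of each transcript class relative to the median of all 8493 genes in the same pair, with a point for each of the 4 Tet2dRBD pairs, a bar for the median of the genes' mean ratios in Tet2dRBD and a star for the same in Tet2. Numbers of genes are in parentheses. Kinesins lie above 0 in all pairs (0.19 to 0.60), while ribosomal proteins, respiratory chain subunits and snoRNA hosts lie below it in pairs 1, 3 and 4 and near or above it in pair 2.

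Across all 8493 genes, the ratio followed coding length. In quintiles of the 7835 genes (92.3%) that could be matched to the annotation, the median relative to all genes went from -0.25 in the shortest (median 459 bases) through -0.11, -0.01 and 0.10 to 0.24 in the longest (median 2940 bases). The order held in pairs 1, 3 and 4, at -0.28 to 0.24, -0.33 to 0.29 and -0.26 to 0.22 between the lowest and highest quintiles, and the span was smaller in pair 2, -0.07 to 0.19. In the shortest quintile 34.6% were called lower and 1.34% higher, and in the longest 1.91% and 12.4%. The 3′ UTR did not show this: its quintiles ran only from -0.05 to 0.05. Genes with over 10 exons had a relative median of 0.16, with 9.08% called higher, and the 173 genes with a single exon -0.22. The 210 noncoding entries had a relative median of -0.37, with 30.3% called lower.

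GC content behaved differently in each pair. From the lowest quintile of transcript GC (median 43.33%) to the highest (58.71%), the relative median went from -0.36 to 0.30 in pair 4 and from -0.21 to 0.21 in pair 3. In pair 1 it was flat, at 0.03 and 0.04, and in pair 2 it ran the other way, from 0.34 to -0.04. Within every quintile of GC, the longest coding quintile lay above the shortest over the 4 pairs, by values from 0.10 against -0.38 at the lowest GC to 0.23 against -0.12 at the highest. This order did not hold in pair 2 at the highest GC, where the longest had -0.03 and the shortest 0.00. The most abundant quintile of genes (median 158.7 TPM) had a relative median of -0.16 and the least abundant (6.92 TPM) 0.07. What part length, GC and abundance have in the class values was not tested.

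**Figure D4:**
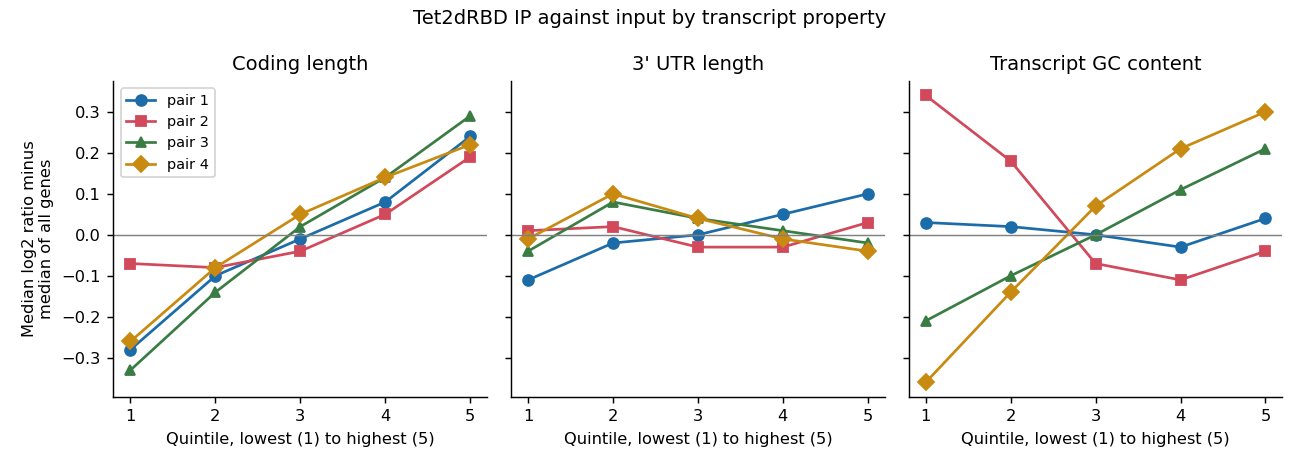
Median log2 ratio relative to all genes in quintiles of coding length, 3′ UTR length and transcript GC content, with a line for each Tet2dRBD pair. The longest coding sequences lie above the shortest in all 4 pairs, the 3′ UTR lines show no common slope, and over GC the lines go up in pairs 3 and 4, stay flat in pair 1 and go down in pair 2.

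Pair 2 stood apart from the other pairs, and input 4 from input 3, in particular classes and genes. Pair 2 lay below the mean of the other pairs by a median of -0.23 over all genes, by -0.69 for extracellular matrix proteins, -0.60 for immediate early genes and -0.56 for solute carriers. It lay above the others for snoRNAs and scaRNAs (0.75), snoRNA hosts (0.43), histones (0.38), cytosolic ribosomal proteins (0.34), respiratory chain subunits (0.26), DNA replication factors (0.25), mitochondrial ribosomal proteins (0.17), spliceosome, SR and hnRNP proteins (0.11) and aminoacyl-tRNA synthetases (0.07). Of the other noncoding classes, microRNA entries had -0.45 and nuclear long noncoding RNAs -0.01. In the Tet2 line, pair 2 differed from the others by 0.17 over all genes, 0.48 for extracellular matrix proteins, 0.18 for immediate early genes and 0.23 for solute carriers. It differed there by -0.62 for cytosolic ribosomal proteins, -0.53 for respiratory chain subunits and -0.11 for histones, all of the opposite sign to Tet2dRBD, but by 0.88 for snoRNAs and scaRNAs, 0.10 for snoRNA hosts and 0.11 for DNA replication factors, of the same sign. Input 4 differed from input 3, its closest library, by an SD of 0.25 over genes, against 0.163 between inputs 4 and 3 of the Tet2 line and 0.146 between IPs 4 and 3 of Tet2dRBD. The difference was not spread evenly. For the 12 most enriched genes the median log2 of input 4 over input 3 was 0.93. For the 100 genes with the highest ratios in pairs 3 and 4 of the Tet2 line, which are other libraries, it was 0.69, with 80 of 100 higher in input 4, against 0.04 and 66 of 100 between the Tet2 inputs and -0.011 over all genes. Pabpc1 is an example, with 186 and 613 TPM in inputs 3 and 4 and 1386 and 1402 TPM in the IPs. What set input 4 apart was not tested.

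The Tet2 line, whose protein keeps the domain, gave much the same order of genes. Across the 8493 genes the mean log2 ratios of the lines had a Pearson correlation of 0.90 (0.89 without replicate 2), with SDs over genes of 0.40 in Tet2dRBD and 0.51 in Tet2. These are correlations across genes, which are not independent, and the lines share gene lengths and, as read from the numbering, the library sets. At 5 TPM or more, edgeR called 1088 genes higher (12.8%) and 2145 lower (25.3%) in Tet2. Of the Tet2dRBD genes called higher, 405 were also called higher in Tet2, which is 87.5% of the Tet2dRBD list and 37.2% of the Tet2 list. Of those called lower, 1295 were shared, 91.5% and 60.4% of the lists. With all pairs, all 24 classes had the same sign in both lines. Without replicate 2 of both lines, some classes near 0 had opposite signs in Tet2dRBD and Tet2. These were proteasome subunits (-0.17 against 0.04), solute carriers (0.03 against -0.02) and immediate early and Myc genes (0.07 against -0.06). With all pairs, the median was nearer to 0 in Tet2dRBD in 20 of 24 classes, for example -0.29 against -0.56 for cytosolic ribosomal proteins. Without replicate 2 of both lines this held in only 12 of 24.

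The difference between the lines was tested directly, as the Tet2dRBD IP effect minus that of Tet2. edgeR called no gene higher (0.00%) and 3 lower (0.0219% of 13710, or 0.0354% of the 8468 at 5 TPM or more), with 416 genes at an unadjusted p under 0.05. On simulated data of this design edgeR recovered 80% of 4-fold and 34% of 2-fold differences, and smaller ones were not simulated. Those data held 13601 genes, 100 of them changed by each fold, and edgeR also made 6 false calls on them. All other genes in them had no IP effect. In the real data Maea had a difference of -2.11 and was not called (edgeR adjusted p = 0.13). With so many changed genes in the simulation, neither the recovered shares nor the count of false calls carries over to the 3 calls here. How many of those 3 are false is not known. The 3 genes were Sec22b, a SNARE of transport between endoplasmic reticulum and Golgi (-2.02 ± 0.22, SE, edgeR adjusted p = 0.012), Klf2, a naive pluripotency factor (-1.33 ± 0.14, 0.012), and Cyb5r3, a cytochrome b5 reductase (-1.60 ± 0.21, 0.047). Sec22b had 54.0, 45.7, 48.2 and 50.4 TPM in the Tet2dRBD inputs and 52.1, 41.8, 38.5 and 40.6 TPM in the IPs. Its log2 ratios were -0.05 to -0.32 in Tet2dRBD and 1.48 to 2.53 in Tet2, without overlap. Klf2 ratios were -0.21 to 0.27 against 1.36 to 1.66, and those of Cyb5r3 -0.47 to -0.13 against 1.03 to 1.92. The calls of the difference were lost in most fits that left out a pair: Sec22b was called in 3 of 8 (adjusted p up to 0.098), Klf2 in 2 (up to 0.14) and Cyb5r3 in 2 (up to 0.26), and all 3 were lost without replicate 1, 3 or 4 of Tet2dRBD or replicate 3 or 4 of Tet2.

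Only 4 of the 8468 genes were called in opposite directions in the lines, lower in Tet2dRBD and higher in Tet2: Sec22b, Cyb5r3, Sat1, which acetylates polyamines, and Rfng, which modifies Notch. They were singled out after their values were seen. In Tet2dRBD the lower call of Sec22b (mean log2 ratio -0.20) was lost without replicate 1, 3 or 4 (edgeR adjusted p up to 0.18). That of Cyb5r3 (mean -0.32) was lost without replicate 1 or 3 (up to 0.091). These lower calls are on edgeR's scale, which lay below the log2 TPM ratios. Sat1 had log2 ratios of -0.49 to -0.36 in Tet2dRBD and 0.42 to 1.79 in Tet2, and Rfng means of -0.06 and 0.59, but their differences were not called (edgeR adjusted p of 0.19 and 0.25).

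**Figure D5:**
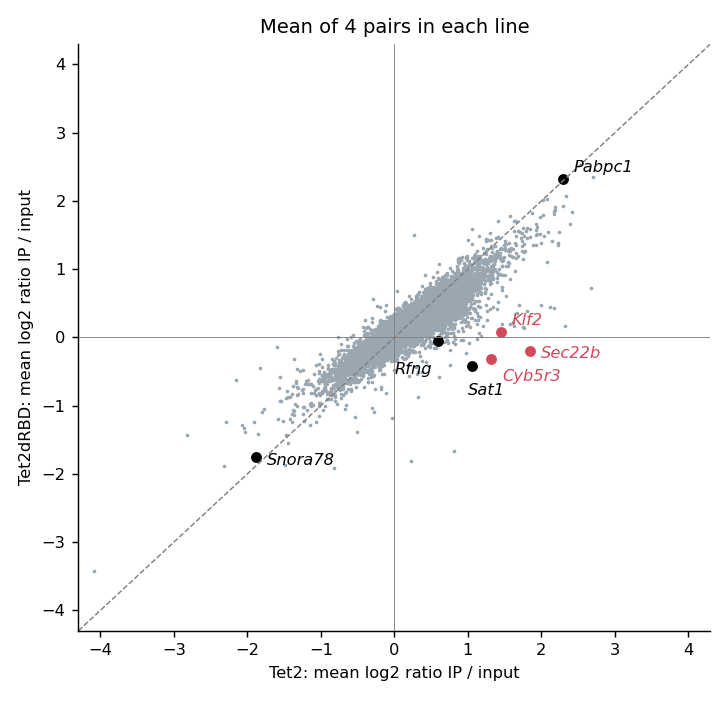
Mean log2 ratio of IP over input in the Tet2 line (x axis) and in Tet2dRBD (y axis) for 8493 genes, with a dashed line of equality. The genes follow the line with a lesser slope (correlation 0.90); Sec22b, Klf2 and Cyb5r3, in red, lie below it, near 0 in Tet2dRBD and at 1.32 to 1.84 in Tet2.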

How the data were processed

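The authors trimmed reads and mapped them to mouse mm9 with RSEM, using the RefSeq transcriptome; the submitters' processing notes also name Bowtie2, FastQC and Trimmomatic. The deposited tables hold RSEM expected counts per gene, FPKM (not used) and TPM to which the authors had added a pseudocount of 1, taken off here before levels were given. The IPs and inputs of 20 libraries were grouped by title and paired by replicate number. Deviations of an IP and of the input of the same number from their group means had correlations of 0.89, 0.73, 0.76 and 0.62, each over 0.1, the criterion used for the block. IP 4 had 0.74 with input 3 and IP 3 had 0.61 with input 4, so this check did not tell replicates 3 and 4 apart. Expected counts were rounded and tested with edgeR 4.0.16 (TMM, quasi-likelihood) in R 4.3.3 with all 20 libraries in the model and a term per IP and input pair, on the 13710 genes with at least 1 CPM in 2 libraries. P-values were adjusted by Benjamini-Hochberg over these genes, and 7 residual degrees of freedom remained. The labels do not say that replicates were separate cultures, so p-values measure the spread between these samples. Tested on simulated data of 13601 genes, edgeR recovered 69% of 2-fold and 90% of 4-fold changes of Tet2dRBD IP against input, with 7 false calls. Only 100 genes were changed by each fold there and the rest had no IP effect, so these values need not hold in the real data. DESeq2 1.42.0 and limma 3.58.1 were alternatives, as were other filters, pseudocounts, no block, replicates 3 and 4 merged and leaving out each pair. Named genes were Tet1 to Tet3, the 12 highest and 12 lowest called genes, up to 4 per class, those the study discusses, the genes nearest the 5 TPM limit, those farthest in pair 2, those that differed between lines and 6 reference genes. The members, lists and tests were chosen with earlier results of these data known. Coding length, UTR, GC and exon values came from the mm9 annotation. Depth was 21078995 to 37576638 expected counts per Tet2dRBD library, and reads carried no molecular identifiers.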

Additional observations from a re-analysis of the deposited data

Results flagged for a closer look

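Of 113 sets of 4 Tet2dRBD pair values examined, 7 had a pair far from the other 3 by Dixon's criterion, which chance alone would give in about 1 of 20 sets, and in all 7 it was pair 2. The log2 ratio of pair 2 was 3.19 for Rpl5, 1.99 for Lars, -0.88 for Rrs1, -1.05 for Srsf1 and -0.08 for Sec61g. The median of pair 2 relative to all genes was 0.08 for mitochondrial ribosomal proteins and -0.04 for respiratory chain and ATP synthase subunits, against -0.31 to -0.27 and -0.49 to -0.42 in the other pairs. The sets share libraries, so the 7 are not independent. Many of the genes were also named by their mean over these same 4 pairs, so the rate of 1 of 20 need not hold for them.

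The IP effect differed between the lines, Tet2dRBD minus Tet2, for Sec22b (-2.02), Klf2 (-1.33) and Cyb5r3 (-1.60) on edgeR's log2 scale (adjusted p of 0.012, 0.012 and 0.047). No cause of these differences was tested, and each line was made from picked clones.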

How the results depend on the processing

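Counts of genes called for IP against input (1014 higher, 1660 lower in edgeR) moved with most choices: 1761 higher with DESeq2, 3224 and 629 with limma on log2(TPM + 1), 3370 and 639 with a pseudocount of 0.1, 147 and 601 with Tet2dRBD libraries alone, 5 and 41 with no replicate block, 424 and 636 with replicates 3 and 4 merged, and 207 to 1226 and 588 to 1615 when 1 pair was left out. The 3 genes that differed between lines became 28 with DESeq2, 6 with no filter, 0 with the 2 lines alone, 0 without the block, 0 with replicates merged and 0 to 14 when 1 pair was left out (14 without replicate 2 of Tet2). Genes above and below input in every pair (2568 and 977) were 1666 and 1797 with pairs centred, 5884 and 2607 without pairing (mean IP over mean input), 105 and 49 at 1.5 times, and 2597 to 4651 above when 1 pair was left out. Proteasome subunits ran from -0.17 to -0.01, cytosine methylation genes from 0.08 to 0.23 and microRNA entries from -1.51 to -0.25 when 1 pair was left out. microRNA entries were -2.06 with a pseudocount of 0.1 and -0.83 at 1 TPM, and Zfp genes 0.18 at 1 TPM. Klf2 for IP against input, -0.20 in edgeR and not called, was 0.08 under both limma settings. No cause was tested. Of 91 results for single genes, 87 kept their side of the threshold with DESeq2, 4 were newly called, and 77 lost a call without the block, 38 of 87 with Tet2dRBD libraries alone, 23 with replicates 3 and 4 merged, and 26, 9, 36 and 5 without Tet2dRBD replicate 1, 2, 3 or 4. Without Mir17hg, a choice made after seeing the data, snoRNA hosts were -0.57 (-0.65 with it). Short entries were limited by their few start positions: at 5 TPM, 6 of 20 snoRNAs and 4 of 15 microRNA entries passed the count filter.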

Other observations

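Among 8458 genes with an effective length of at least 200 bases, the largest gaps between the lines' mean log2 ratios were singled out after the values were seen, and none is a call beyond the 3 given above. Maea, a subunit of a ubiquitin ligase, had a mean of 0.17 in Tet2dRBD and 2.32 in Tet2 (edgeR adjusted p of the difference 0.13). Atp6v1e1, a subunit of the vacuolar proton pump, had 0.72 and 2.67 (0.089). Wee1, a kinase that holds cells before mitosis, had 0.43 and 2.17 (0.23). Ncoa3, a coactivator of nuclear receptors, had 0.45 and 2.12 (0.19). The 4 values of each line did not overlap for any of these 4 genes.

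Gaps in the other direction were smaller and lay in pair 2. Omd had log2 ratios of -2.14, 1.62, -2.77 and -2.43 in Tet2dRBD and -3.44 to -2.44 in Tet2. Gm15645, Dclre1c and Rab33b had the same pattern, with 1.18, 1.01 and 1.62 in pair 2 of Tet2dRBD against values from -2.41 to -0.04 in its other pairs. For these 4 genes the edgeR adjusted p of the difference was 1.00.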
